A study of Mus musculus with 6 samples.

Results

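Transcripts of microglia, endothelial cells and mural cells (pericytes and vascular smooth muscle) were followed through a purification aimed at serotonin neurons of the mouse brain. The members were 39 genes chosen by symbol: 17 of microglia and macrophages, 14 of endothelial cells and 8 of mural cells. A gene was read by every probe set (the group of probes on the array that reads 1 transcript) annotated with that single symbol, which gave 68 of the 34945 probe sets with 1 symbol, for 38 of 18193 genes. The remaining member, Ly6c1, shares its probe set with Ly6c2 and was not analysed here.

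RNA was measured on Affymetrix mouse arrays. The samples came from TRAP (translating ribosome affinity purification), a method that captures tagged ribosomes from a tissue lysate along with the mRNA they carry. All mice carried the bacterial artificial chromosome transgene of the line slc6a4 JD60, in which the serotonin transporter gene's regulatory region sets the targeted cells, on a mixed background of FVB and c57/bl6j. They were males and females aged 6 to 12 weeks, 5 pooled per sample, and the tissue was midbrain and brainstem without cerebellum. The 3 IP samples were captured, ribosome-bound RNA. The 3 unbound samples were what capture left behind in the same replicates, and stand for the whole tissue. No group lacked the transgene, so RNA captured without the tag was not measured, and cell type and binding to ribosomes cannot be told apart as sources of a difference. Values are log2 expression. IP values were shifted by -0.23 to align the biotinylated hybridisation controls of both groups, which the submitters' design text recommends. The detection limit used here was a log2 value of 5, and the lowest value any gene can take, the floor, was 1.98 in IP and 2.17 in unbound RNA.

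Microglia are the resident macrophages of the brain. They depend on the receptor Csf1r, sense neurons through receptors such as Cx3cr1 and P2ry12, and make the complement component C1q. Endothelial cells line brain capillaries and form the blood-brain barrier through tight junctions and transporters, while mural cells wrap those vessels, are recruited through the receptor Pdgfrb and, on arterioles, contract. Since none of these cells is a neuron, their transcripts serve as a measure of what a neuronal capture leaves behind.

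The promoters of C1qb and Ctss are shown because the brightest probe set of each gene was measured in each fraction and both windows hold the same short motif. Each window is the 250 bases before the gene's outermost RefSeq start in GRCm38.p6, given 5′ to 3′ on the gene's strand. Capitals mark GAGGAA or its reverse complement, the core of the sites bound by PU.1, the lineage factor of macrophages. The C1qb window is chr4:136886201-136886450 on the minus strand and the Ctss window is chr3:95526536-95526785 on the plus strand.
C1qb: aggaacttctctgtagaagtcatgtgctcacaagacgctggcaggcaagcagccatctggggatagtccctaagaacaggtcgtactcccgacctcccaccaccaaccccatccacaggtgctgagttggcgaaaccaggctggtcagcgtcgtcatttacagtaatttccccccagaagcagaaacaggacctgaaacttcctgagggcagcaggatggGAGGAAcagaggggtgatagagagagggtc
Ctss: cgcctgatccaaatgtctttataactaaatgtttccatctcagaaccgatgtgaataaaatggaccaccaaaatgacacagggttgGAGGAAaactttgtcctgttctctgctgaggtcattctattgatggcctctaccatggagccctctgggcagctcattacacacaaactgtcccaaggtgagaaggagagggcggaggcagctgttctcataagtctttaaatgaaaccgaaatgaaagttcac

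The RefSeq table held windows for 28 of the 38 members. GAGGAA, searched on both strands, was found in 9 of 13 microglial, 4 of 10 endothelial and 2 of 5 mural genes, against 25.9% of all 27025 genes in the table. The match lay 25 bases before the start in C1qb and 159 in Ctss. Microglial Laptm5 and mural Rgs5 and Acta2, also measured in each fraction, hold GAGGAA too, in windows not shown. For 9 of the 28 members the table's window starts from another transcript's start than the outermost one, and can lie inside the gene. ACAAT, the core of SOX factor sites, was found in 2 of 13, 2 of 10 and 1 of 5 genes against 30.9% of all genes. The CArG box of smooth muscle genes was searched only as an exact CCWWWWWWGG (W is A or T). It was found in none of the 28 against 1.62%. Sites that differ from it by 1 base were not searched, and the Acta2 window holds ccctatatgg and ccttgtttgg, which do. The motifs were chosen with the expression values known, and a match describes letters in a window, not a bound site.

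The captured RNA carried the serotonin neuron markers. For Slc6a4, the serotonin transporter gene, the 3 IP arrays averaged 14.20 ± 0.12 (SD) and the 3 unbound arrays 9.05 ± 0.07. For Tph2, the brain enzyme of serotonin synthesis, the averages were 15.16 ± 0.14 and 9.35 ± 0.17. All 6 serotonin neuron markers on the array were higher in IP. Of 10 pan-neuronal markers, Uchl1 was higher, 4 were lower (Nefm, Map2, Nefl and Elavl3) and 5 were not called. These counts lie near the shares of all genes tested, of which 41.1% were called lower and 10.4% higher. They do not set the pan-neuronal markers apart from other genes. Arrays correlated across probe sets at 0.996 to 0.999 within IP and 0.994 to 0.997 within unbound RNA (Pearson's r). None of the 3 red blood cell genes on the array reached the detection limit.

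Among the 38 members, 22 reached the detection limit on at least 3 of the 6 arrays and were tested, and 21 of these were called lower in IP, meaning a 2-fold or larger difference with an adjusted p below 0.05 (limma with Benjamini-Hochberg adjustment over all 10581 genes tested). The remaining tested member, Aif1, was higher. Over all genes tested, 41.1% were called lower and 10.4% higher. For 13 of the 21 lower members every IP array lay below the limit, so passing the filter had already fixed their direction, and they lend no support as a count. The members that bear on the comparison are the 8 at or above the limit on all 6 arrays: Csf1r, C1qb, Ctss, Laptm5, Itm2a, Slc2a1, Rgs5 and Acta2. All 8 were lower in IP, where 33.0% of the 8692 genes so measured were. Values of IP and unbound arrays did not overlap for any of the 22 tested members, nor for 83.0% of all genes tested. Both fractions came from the same replicates, so a fall in IP describes the captured RNA, not fewer cells in the tissue. Cell type and binding to ribosomes cannot be told apart as its sources.

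**Figure D1:**
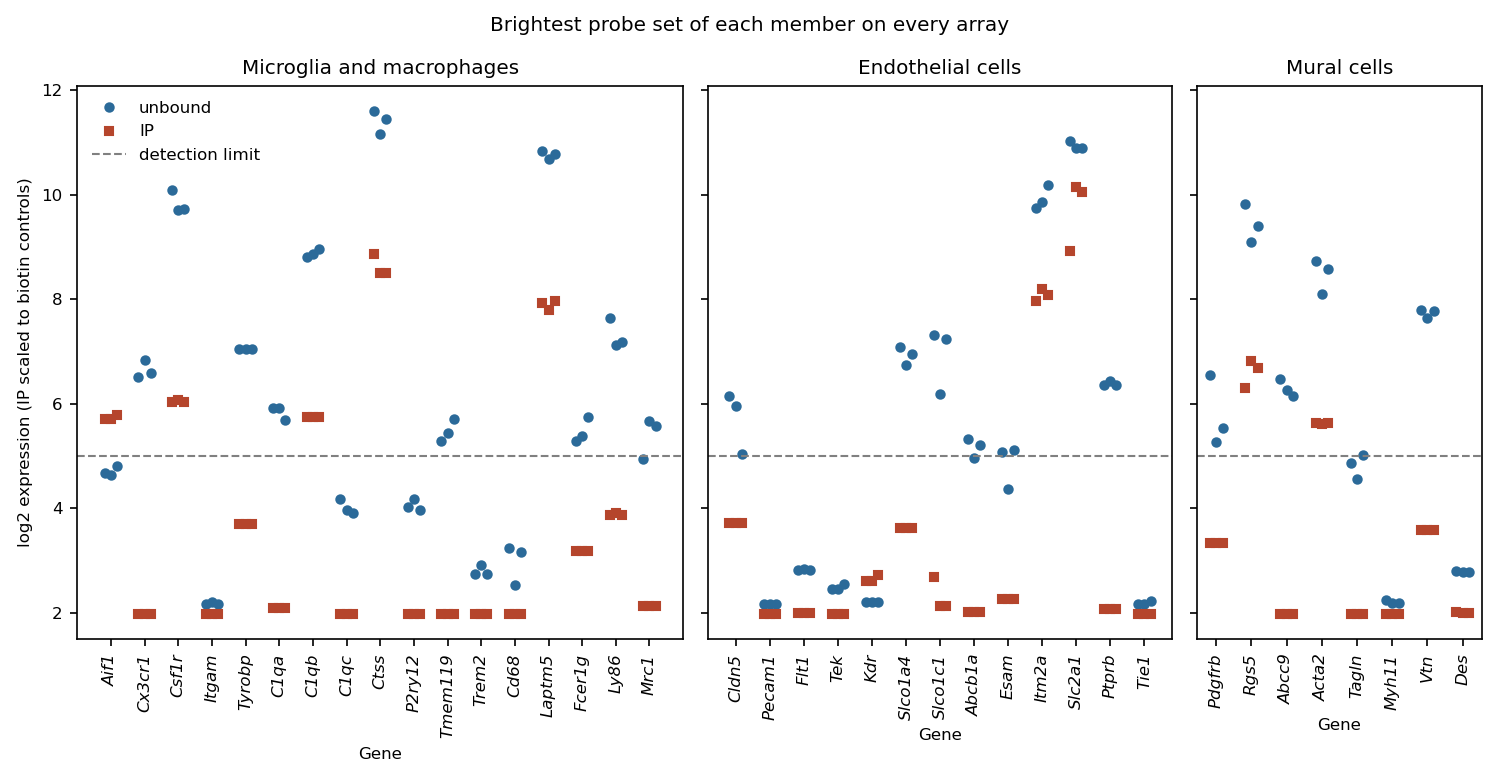
Log2 expression (vertical axis) of the brightest probe set of each of the 38 members on each of 3 IP arrays (squares) and 3 unbound arrays (circles), with the detection limit of 5 as a dashed line. Most IP squares lie below the line, and Aif1 is the only tested member whose IP squares lie above its unbound circles.

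For these 8 genes the level left in IP was between 7.24% (Csf1r) and 42.7% (Slc2a1) of the unbound level, with a median of 14.0%. Over all genes measured on all 6 arrays the median was 74.2%. By cell type the shares ran from 7.24% to 14.7% for 4 microglial genes, from 13.9% to 14.0% for both mural genes, and were 27.8% and 42.7% for both endothelial genes. Of the astrocyte markers 6 were measured on all 6 arrays, with a median of 12.6% left, and of the oligodendrocyte markers 8, with a median of 13%. These shares were not tested against each other. In IP, Csf1r, C1qb and Acta2 averaged 6.06, 5.74 and 5.63, with SDs of 0.02, 0.00 and 0.01. Whether values so alike and so near the limit follow the amount of transcript was not tested. For the 13 members below the limit on every IP array, only an upper bound on the share left can be given, from 15.0% for Vtn to 72.3% for Fcer1g.

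**Figure D2:**
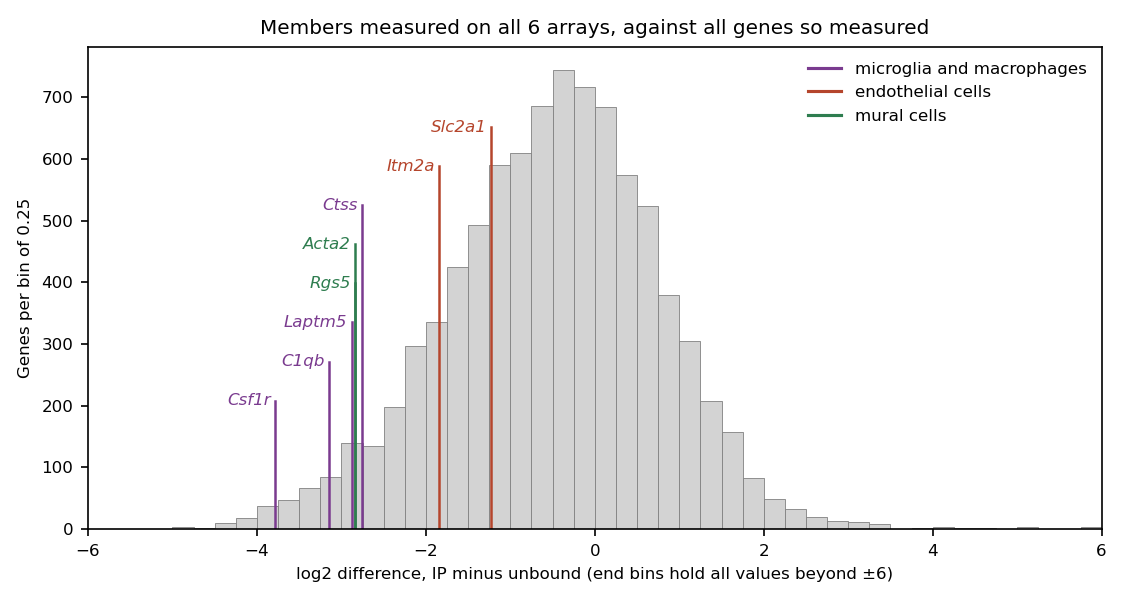
Number of genes (vertical axis) by log2 difference between IP and unbound RNA (horizontal axis) for the 8692 genes at or above the detection limit on all 6 arrays, with the 8 members marked by lines coloured by cell type (line height carries no value). Csf1r lies farthest left at -3.79 and Slc2a1 nearest to 0 at -1.23, with 6 of the 8 below -2.

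Among microglial receptors, Csf1r, which binds the growth factors that keep microglia alive, was measured in both fractions. Its brightest probe set read 6.04, 6.08 and 6.04 in IP and 10.10, 9.70 and 9.73 in unbound RNA, a difference of -3.79 ± 0.12 (SE), 13.8-fold lower in IP (adjusted p = 1.64e-06). Another probe set of the gene lay below the limit on all IP arrays and was at least 4.89-fold lower, and the dimmest was below the limit on all 6 arrays and was not tested. Cx3cr1, the receptor for the neuronal chemokine Cx3cl1, sat at the floor on all 3 IP arrays and read 6.52, 6.83 and 6.59 in unbound RNA, which makes it at least 3.13-fold lower. Its other probe set was near the floor on all 6 arrays. P2ry12, the purine receptor that guides microglial processes, was at the IP floor and at 4.03, 4.18 and 3.97 in unbound RNA, too dim to be tested. Trem2, a lipid-sensing receptor, and Itgam, the integrin subunit CD11b, lay below 3 in both fractions. Mrc1, a mannose receptor that marks macrophages at the brain's borders, read 2.13 on all IP arrays and 4.95, 5.67 and 5.57 in unbound RNA, with too few arrays at the limit for the test.

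Signalling partners of such receptors lay below the limit on all IP arrays, so the filter had fixed their direction and a bound is all that can be given. Tyrobp, the partner of Trem2, had the same value on all arrays of a group, 3.69 in IP and 7.05 in unbound RNA, and was at least 4.15-fold lower (adjusted p = 4.13e-07). Its p rests on the spread that limma borrows from other genes, since neither group showed any. Fcer1g, the adaptor of Fc receptors, was at 3.18 in IP and at 5.28, 5.39 and 5.74 in unbound RNA, at least 1.38-fold lower. Ly86, a partner of a Toll-like receptor relative, read 3.88, 3.91 and 3.88 in IP and 7.64, 7.12 and 7.19 in unbound RNA, and was at least 4.99-fold lower.

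The chains of C1q, which starts the classical complement pathway, differed in whether their brightest probe sets reached the limit in IP. C1qb was 5.74 on all 3 IP arrays and 8.81, 8.87 and 8.97 in unbound RNA, 8.87-fold lower (-3.15 ± 0.08 SE, adjusted p = 6.10e-07). Its second tested probe set, with IP replicate 1 below the limit, read 4.64, 5.32 and 5.93 in IP and 8.40, 8.59 and 8.47 in unbound RNA. Both tested probe sets of C1qb carry the suffix _x_at, for probes that may cross-hybridise. Its remaining probe set, without a suffix, read 1.99 on all IP arrays and 5.47, 5.51 and 4.94 in unbound RNA. Too few arrays reached the limit for that one to be tested. C1qa was below the limit in IP, at 2.10, and read 5.91, 5.91 and 5.69 in unbound RNA, at least 1.79-fold lower. C1qc, at the IP floor, reached only 4.18, 3.96 and 3.90 in unbound RNA and was not tested. Levels of the 3 chains cannot be ranked against each other, since each is read by different probes.

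Of the lysosomal genes, Ctss and Laptm5 could be measured in both fractions and Cd68 could not. Ctss, a lysosomal protease, read 8.87, 8.51 and 8.51 in IP and 11.60, 11.16 and 11.44 in unbound RNA, 6.79-fold lower (-2.76 ± 0.16 SE, adjusted p = 1.45e-05), so 14.7% of its unbound level was left. Laptm5, a lysosomal membrane protein of blood-derived lineages, read 7.93, 7.79 and 7.97 against 10.84, 10.69 and 10.78, 7.34-fold lower (-2.88 ± 0.09 SE, adjusted p = 1.24e-06). Both genes stood clear of the detection limit in IP on every array. The brightest Laptm5 probe set carries the suffix _x_at, which marks probes that may cross-hybridise, and its other 4 probe sets did not reach the limit on 3 arrays. One of those spread from 3.51 to 8.0 over the unbound arrays. Cd68, a lysosomal glycoprotein, was at the floor in IP and at 3.24, 2.53 and 3.17 in unbound RNA. Tmem119, a membrane protein specific to microglia, was at the IP floor and at 5.29, 5.44 and 5.70 in unbound RNA, at least 1.39-fold lower.

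Aif1 ran the other way. It encodes Iba1, the calcium-binding protein most used to stain microglia, and it read 5.70, 5.70 and 5.78 in IP and 4.68, 4.64 and 4.80 in unbound RNA. All IP arrays lay above all unbound arrays, and the difference of 1.02 ± 0.08 (SE) passed the test (adjusted p = 5.23e-05). The unbound arrays were below the detection limit, so against the limit Aif1 was at least 1.66-fold higher, and passing the filter had fixed this direction too. The call stood at the edge of the 2-fold rule and was lost without IP replicate 3 (1.00) or without unbound replicate 2 (0.99). Aif1 has 1 probe set, with the suffix _s_at for probes shared by several transcripts. Among the other 16 microglial genes on the array, none had a higher mean in IP than in unbound RNA. For the dimmest this rests on the scaling, as the signs of Itgam, Trem2 and Cd68 turned with it. In the wider microglial list described below, 8 of 13 tested genes were called lower and none higher, against 41.1% and 10.4% of all genes tested. The filter had fixed the direction of 7 of the 8. Of the 6 genes of that list measured on all 6 arrays, 1 was lower, where 33.0% of all such genes were. Slco2b1 of that list stood at 0.95 ± 0.09 (SE), just under the 2-fold rule.

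**Figure D3:**
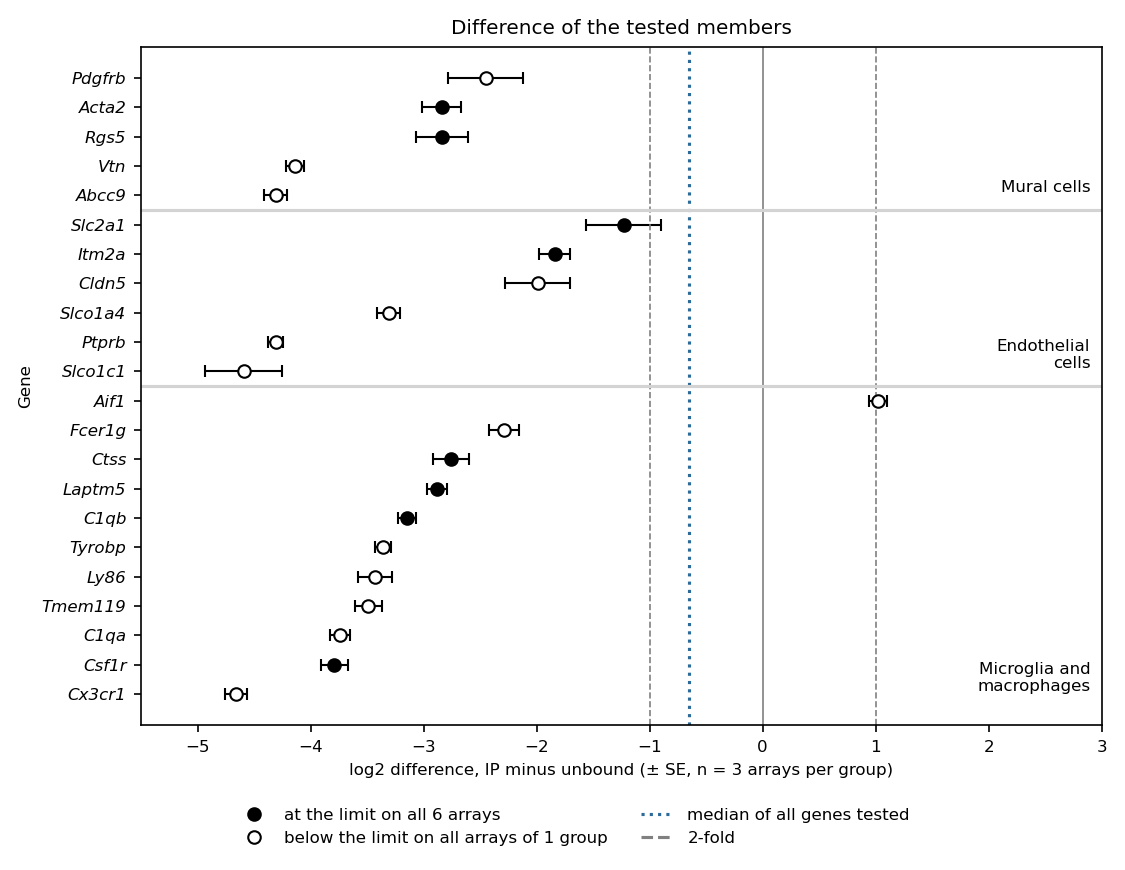
Log2 difference between IP and unbound RNA (horizontal axis, ± SE, n = 3 arrays per group) for the 22 tested members, grouped by cell type. Filled points were at the limit on all 6 arrays, open points below it on all arrays of 1 group, and the dotted line is the median of all genes tested (-0.65). All points but Aif1 (1.02) lie left of the 2-fold line at -1.

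Endothelial genes fell in 6 of 6 tested cases, where 41.1% of all genes tested were called lower. In 4 of the 6 all IP arrays lay below the limit, so the filter left the direction free only for Itm2a and Slc2a1. Of the 13 on the array, 7 were not tested. Cldn5, the main tight junction protein of brain capillaries, read 3.72 on all IP arrays and 6.14, 5.95 and 5.04 in unbound RNA, at least 1.64-fold lower, with unbound replicate 3 close to the limit. Esam, an adhesion molecule of those junctions, read 2.26 in IP and 5.07, 4.37 and 5.11 in unbound RNA and was not tested. Pecam1 was at the floor on all 6 arrays.

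Receptors that mark endothelium were mostly too dim to compare. Flt1 and Kdr, which bind VEGF, and Tek and Tie1, of the angiopoietin pathway, lay below 3 on every array by every probe set, so these defining markers give no information in either fraction. Kdr read 2.61, 2.61 and 2.73 in IP and 2.20 in unbound RNA, all below the limit. Ptprb, the endothelial phosphatase that restrains Tek, was the exception, at 2.07 in IP and 6.35, 6.44 and 6.35 in unbound RNA, at least 2.61-fold lower (adjusted p = 3.62e-07).

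The barrier transporter Slco1c1, which carries thyroxine, read 2.69, 2.13 and 2.13 in IP and 7.31, 6.18 and 7.24 in unbound RNA, at least 3.76-fold lower. Slco1a4, an organic anion carrier, was 3.62 on all IP arrays and 7.08, 6.75 and 6.95 in unbound RNA, at least 3.80-fold lower. Abcb1a, the drug efflux pump P-glycoprotein, was 2.02 in IP and 5.33, 4.97 and 5.21 in unbound RNA, with 2 arrays at the limit and no test. Slco1c1 is also made by astrocytes, whose markers were lower in IP in 6 of the 6 cases measured on all 6 arrays, where 33.0% of all such genes were.

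Slc2a1, the glucose transporter GLUT1 of the barrier and of astrocytes, kept the largest share in IP of the 8 members measured on all 6 arrays. It read 8.92, 10.15 and 10.06 in IP and 11.03, 10.89 and 10.89 in unbound RNA, 2.34-fold lower (-1.23 ± 0.33 SE, adjusted p = 0.0148). IP replicate 1 stood more than 1 log2 unit below the other 2 IP arrays, and a second probe set of Slc2a1 was lowest on that array too, at 7.13, 8.08 and 8.09 in IP. Without that array the difference was -0.83 and under 2-fold (adjusted p = 7.21e-04). Leaving out any 1 unbound array also ended the call, with adjusted p from 0.0540 to 0.0633. Itm2a, a membrane protein abundant in brain endothelium, read 7.97, 8.20 and 8.08 in IP and 9.75, 9.86 and 10.18 in unbound RNA, 3.59-fold lower (-1.84 ± 0.14 SE, adjusted p = 4.10e-05). Its dimmer probe set was at -0.94, under the 2-fold rule.

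All 5 tested mural genes fell, where 41.1% of all genes tested were called lower. In 3 of the 5 IP lay below the limit, so the filter left the direction free only for Rgs5 and Acta2. Rgs5, a regulator of G-protein signalling that marks pericytes, read 6.31, 6.81 and 6.69 in IP and 9.83, 9.09 and 9.40 in unbound RNA, 7.16-fold lower (-2.84 ± 0.23 SE, adjusted p = 5.76e-05). Its second bright probe set had all IP arrays below the limit and was at least 10.6-fold lower. Pdgfrb, the receptor that recruits pericytes to vessels, was 3.33 on all IP arrays and 6.55, 5.26 and 5.53 in unbound RNA, at least 1.72-fold lower. Abcc9, a subunit of the pericyte potassium channel, was at the floor in IP and at 6.48, 6.27 and 6.15 in unbound RNA, at least 2.46-fold lower. Vtn, the matrix protein vitronectin that brain pericytes make, had the tightest bound of the members below the limit: it read 3.59 in IP and 7.79, 7.64 and 7.77 in unbound RNA, at least 6.66-fold lower.

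Of the contractile genes, Acta2 could be measured in both fractions. This smooth muscle actin read 5.63, 5.62 and 5.63 in IP and 8.73, 8.10 and 8.58 in unbound RNA, 7.17-fold lower (-2.84 ± 0.17 SE, adjusted p = 1.65e-05). The signal came from an _s_at probe set, while its other 2 probe sets were at the floor on all 6 arrays. Tagln, an actin-binding protein of smooth muscle, was at the floor in IP and at 4.87, 4.56 and 5.01 in unbound RNA, and was not tested. Myh11, the smooth muscle myosin, and Des, the intermediate filament desmin, lay below 3 in both fractions.

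Unbound replicate 1 held the highest unbound value for all 5 tested mural genes, for 4 of 6 endothelial and for 6 of 11 microglial ones. It was also the highest unbound array for 45.6% of all genes tested.

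Of 17 members with more than 1 probe set, 5 had more than 1 tested, and none of these 5 had calls in both directions. Of the 68 probe sets, 28 were tested one by one, of which 26 were called lower, 1 higher (Aif1) and 1 (Itm2a) not called, where 43.0% of all 16835 probe sets tested were called lower. Another 7 were at the floor on all 6 arrays. Where every IP array lay below the limit, the filter had fixed the direction of a tested probe set, as it had for Aif1. The count of 26 therefore lends no support by itself. Of the 16 members that were not tested, 12 had no array at the limit in either fraction. Fitted without any filter, 6 of the 16 were called lower (Abcb1a, C1qc, Esam, Mrc1, P2ry12 and Tagln) and none higher, where 29.7% of all genes were called lower in that fit. All 6 had identical values on the IP arrays. C1qc, P2ry12 and Tagln sat at the IP floor, which lies below the unbound floor, so they could not have come out higher. Pecam1, at the floor on all 6 arrays, had an adjusted p of 2.55e-07 in this limma fit at a difference of -0.18. This count lends no support either.

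Identical values limit the error of many of these estimates. For 12 of the 21 lower members the 3 IP values were the same to the last digit, as they were for 15.8% of IP probe sets with a mean of at least 5 and for 0.481% of unbound ones. All of the 12 but C1qb had IP means under 5, so the 15.8% is no like comparison. Among genes of any level 8671 of 18193 had identical IP values, and among genes tested 2124 of 10581 had identical IP values. Such values carry no spread between replicates. Of the 10 tested members without identical values in either group, 9 were called lower, where 36.8% of all genes without identical values were. Ly86 and Slco1c1 among these 9 lay below the limit on all IP arrays.

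**Figure D4:**
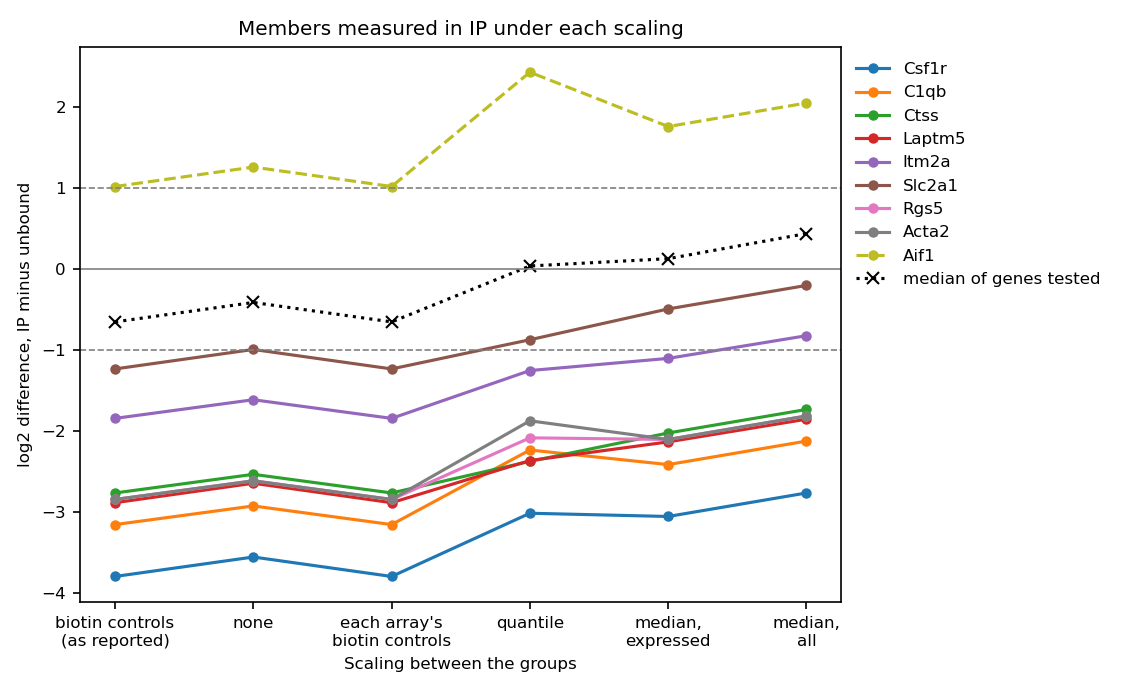
Log2 difference between IP and unbound RNA (vertical axis) of the 8 members measured on all 6 arrays, of Aif1 (dashed) and of the median tested gene (dotted), under the scalings between the separately normalised groups that are named on the horizontal axis. Slc2a1 and Itm2a are the highest of the 8 under each scaling.

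The groups were normalised separately, so the zero of every difference depends on the scaling between them. The median of all tested genes was -0.65 as reported, -0.41 unscaled, 0.04 after quantile normalisation, 0.13 with arrays centred on expressed probe sets and 0.44 with arrays centred on all probe sets. The 1104 genes called higher and 4354 called lower became 2514 and 2473 after quantile normalisation, 2727 and 2592 with the expressed median and 3581 and 2057 with the median of all. Under these scalings Csf1r ranged from -3.79 to -2.76, and the other members measured in IP kept their sign, with Slc2a1 reaching -0.20 and Itm2a -0.82 when centred on all probe sets. Slc2a1 was called under neither no scaling (-0.99), quantile normalisation (-0.87) nor either median. Aif1 ranged from 1.02 to 2.43. Scaled to the poly-A spikes, which shifts IP by -2.91, Aif1 turned to -1.65 and the median gene to -3.37.

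Further genes of these cells were drawn from wider lists, and here too a gene below the limit on every IP array could only be called lower. Of 13 tested microglial genes outside the members, 8 were called lower and none higher, but 7 of the 8 were of that kind. Of the 6 measured on all 6 arrays 1 was lower, with a median difference of -0.03, where 33.0% of all such genes were lower. That gene was Tgfbr1, a receptor for TGF-beta, 7.83-fold lower. The others measured include genes that many cells make: Cst3, a protease inhibitor, differed by 0.08, Lgmn, a lysosomal protease, by -0.13 and Coro1a, an actin regulator, by 0.58, none of them called. The signs of Cst3 and Lgmn turned with the scaling. Among genes below the limit in IP, Sall1, a transcription factor of microglial identity, was at least 13.5-fold lower, Fcgr3, an Fc receptor, at least 3.21-fold and Olfml3, a secreted glycoprotein, at least 2.97-fold. Of 4 tested genes of border macrophages and monocytes, Lyz2, F13a1 and H2-Aa were called lower with every IP array below the limit, where 41.1% of all genes tested were called lower. Pf4, a platelet and macrophage chemokine, was the 1 measured on all 6 arrays and was not called at -0.15, a sign that turned with the scaling.

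Endothelial genes outside the members moved both ways. Of the 6 measured on all 6 arrays 2 were lower (Tjp1, a junction scaffold, and Tfrc, the transferrin receptor) and 2 higher (Ctla2a and Egfl7), with a median difference of -0.09, where 33.0% of all such genes were lower and 10.3% higher. Another 6 of the 13 tested were called lower with all IP arrays below the limit, among them the transcription factors Klf4, at least 5.04-fold, and Ets1, at least 2.18-fold, and Mfsd2a, the lipid carrier of the barrier, at least 5.15-fold. Ctla2a, a protease inhibitor, read 12.28, 10.58 and 10.71 in IP and 6.54, 5.89 and 6.14 in unbound RNA, 32.1-fold higher (5.00 ± 0.48 SE, adjusted p = 1.35e-04), and stayed above 0 under every scaling, the poly-A one included (2.33). IP replicate 1 was the highest of its arrays. Its near-identical neighbour Ctla2b may share its probes. Egfl7, a secreted factor of endothelium, read 9.23, 9.55 and 9.57 against 7.57, 7.64 and 7.72, 3.49-fold higher (1.80 ± 0.12 SE, adjusted p = 2.36e-05), and turned to -0.88 under the poly-A scaling. Its probe set, the brightest of 4, carries the suffix _x_at for probes that may cross-hybridise, and values of the others are not given here. Abcg2 (-0.42) and Ramp2 (0.24) were not called.

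Of 4 further mural genes tested, 3 were called lower, where 41.1% of all genes tested were. The actin-binding Cald1 and Tpm2 were lower with all arrays at the limit, where 33.0% of all such genes were. Cspg4 was lower with all IP arrays below the limit. Mylk, a myosin kinase, was not called at -0.90, with a sign that turned with arrays centred on all probe sets (0.13). All 5 tested markers of vascular fibroblasts were called lower, where 41.1% of all genes tested were. Igfbp2, which binds insulin-like growth factors, was the 1 measured on all 6 arrays and was 8.53-fold lower. The 4 others were called lower with all IP arrays below the limit, Col1a2, a collagen, at least 3.68-fold, Dcn, a matrix proteoglycan, at least 6.63-fold, and Pdgfra, which also marks oligodendrocyte precursors, at least 18-fold. Summed over each whole list on a linear scale and taken back to log2, the microglial members spanned 9.70 to 9.90 over the IP arrays and 12.53 to 12.81 over the unbound arrays, the endothelial members 9.65 to 10.55 and 11.66 to 11.79, and the mural members 7.38 to 7.64 and 10.19 to 10.80. Such a sum rests mostly on its brightest genes. Among members these were Ctss and Laptm5 (microglial), Slc2a1 and Itm2a (endothelial), and Rgs5 and Acta2 (mural). Cst3 was the brightest further microglial gene in both fractions. Of the further endothelial genes, Ctla2a was brightest in IP and Tfrc in unbound RNA. Single-gene values did not overlap for 83.0% of all genes tested, and no such share was obtained for sums. The ranges of IP and unbound arrays did not meet in any of the 3 member lists. They did meet for the further microglial genes, between 13.21 and 13.29 on IP arrays and between 13.15 and 13.53 on unbound arrays, and for the further endothelial genes, between 11.78 and 12.77 and between 12.03 and 12.54.

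Of 17 tested ligands and partners of the member receptors, 9 were measured on all 6 arrays. Of these 9, 4 were lower and 1 higher, with a median difference of -0.60, where 33.0% of all such genes were lower. Apoe, a lipid carrier that Trem2 can bind, was 11.6-fold lower. Vegfb, a ligand of Flt1, averaged 10.09 ± 0.08 over the 3 IP arrays and 9.02 ± 0.35 over the 3 unbound arrays (SD), 2.09-fold higher (1.06 ± 0.18 SE, adjusted p = 0.00193), and was at -1.61 under the poly-A scaling. The growth factor Tgfb2, with 1 of 3 IP arrays at the limit, was at least 10.7-fold lower. With all IP arrays below the limit, the barrier-inducing ligands Wnt7a and Ndp were at least 2.84-fold and 1.66-fold lower. Clu (0.48), Cd200 (0.60) and Cd47 (-0.60), the last 2 of which encode neuronal surface proteins that signal to microglia, were not called, and the sign of Cd47 turned under both median scalings. Other ligands, named here after their values were seen, were Csf1, the ligand of Csf1r, at least 4.11-fold lower, Vegfa, at least 5.11-fold lower, and Cx3cl1, which averaged 7.87 ± 0.19 over the 3 IP arrays and 8.88 ± 0.10 over the 3 unbound arrays (SD). Cx3cl1 was called lower at -1.01, right at the 2-fold rule, and its difference was 0.02 with arrays centred on all probe sets.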

How the data were processed

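Each array held 45101 deposited log2 values. GCRMA is named in the submitters' processing notes (version not given in the sources used here), and the authors applied it within each group of replicates, per the series' design text. For every array 20 ng of RNA went through 2-cycle amplification, per the labels' protocols. The log2 scale was read from the values. IP arrays were shifted by the mean difference over 18 biotinylated control probe sets. Each gene was read by its brightest probe set with a single symbol in the platform annotation and tested where at least 3 of 6 arrays reached log2 5. The test was limma (3.58.1, R 4.3.3; lmFit and eBayes on group, two-sided, Benjamini-Hochberg), checked on simulated data. A call needed an adjusted p under 0.05 and 2-fold. "At least" folds count each dim array at no less than the limit. The number of arrays limits the precision.

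Members and gene lists were chosen with earlier results of these data known. Named genes were all members, Slc6a4 and Tph2, and from each other list the genes called higher, up to 3 with the largest fitted falls and up to 3 not called with both means at the limit, taken as the brightest. Tgfbr1, Slco2b1, Tjp1, Tfrc, Igfbp2, Apoe, Csf1, Vegfa and Cx3cl1 were named after their values were seen. Deviations of same-numbered IP and unbound samples from their group means correlated at 0.27, 0.16 and 0.10, and the labels say which replicate each unbound sample came from, so the numbers were taken to pair the samples. IP replicate 3 correlated more with unbound replicate 2 (0.21). Other scalings, filters, probe-set rules, a replicate block and leaving out each array were tried.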

Additional observations from a re-analysis of the deposited data

How the results depend on the processing

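As reported, 21 members were lower in IP (10 microglial, 6 endothelial, 5 mural) and 1 higher, 8 members had both group means at the limit, 39 other listed genes were lower and 3 higher, and 1104 of all genes were higher and 4354 lower. Quantile normalisation gave 2514 and 2473 over all genes and 11 and 24 for other listed genes, higher and lower. The median over all probe sets gave 3581 and 2057, with 3 endothelial members lower and 11 other listed genes higher. The median over expressed probe sets gave 2727 and 2592, with 8 other listed genes higher. The poly-A scaling gave 35 and 9992, with 0 members and 1 other listed gene higher and 4 members with both means at the limit. With no filter 60 other listed genes were lower. Requiring log2 7 on 3 arrays left 11 members lower (6, 2 and 3), 0 higher and 16 other listed genes lower. Requiring a mean of log2 5 in both groups left 8 (4, 2 and 2), 0 and 10. Averaging probe sets gave 2 mural members lower, 3 members with both means at the limit, and 20 other listed genes lower. Every probe set by itself gave 1748 higher and 7233 lower, with 6 of other listed genes higher. Without genes with identical values 9 members (4, 3 and 2) and 22 other listed genes were lower. Without suffixes _s_at and _x_at, an alternative chosen after seeing the data, 3 mural members were lower, 0 members higher and 5 had both means at the limit. Leaving out 1 array at a time gave 0 to 1 members higher and 20 to 21 lower. With the replicate block 21 members were lower and 1 higher, and over all genes 1108 were higher and 4360 lower; it changed no call among the members. Of the members, 19 of 22 were called alike in every setting that tested them; the others were Slc2a1, Itm2a and Aif1. The cause of these changes was not tested, beyond the fewer genes that stricter filters test. Values below log2 5 limit 13 of the 21 falls to bounds.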
